A study of Homo sapiens with 6 samples.

Results

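Protein prenylation, the attachment of an isoprenoid lipid to a cysteine near the end of a protein, was examined through 10 genes named for their role in it, of 81496 gene symbols on the arrays. They were GGPS1, FNTA, FNTB, PGGT1B, RABGGTA, RABGGTB, CHM, RCE1, ICMT and ZMPSTE24, and each was read from the probe set of that symbol with the highest mean over 5 arrays. Total RNA of 2 human breast epithelial lines was measured on Clariom D arrays, which use short oligonucleotide probes for coding and noncoding transcripts. MCF10.AT1 is a preneoplastic line of the MCF10A series that carries an activated HRAS, was sensitive to the drug and is named untreated in its source label, although the treatment text with the fluvastatin doses stands on all 6 samples. MCF10.AT1-R was selected from it in fluvastatin, a statin, at doses that rose from 1 µM through 5 µM to 20 µM, and it carries the same HRAS. It is a single selected line, and the sources used here do not say whether the drug was present when RNA was taken. The labels call the 3 arrays of each line biological replicates, and p-values measure only the spread between these arrays. All arrays of MCF10.AT1 have names beginning with A and all of MCF10.AT1-R have names beginning with B, so that line and anything else that differs between the array series cannot be told apart.

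The mevalonate pathway makes farnesyl diphosphate, which GGPS1 extends to geranylgeranyl diphosphate. Farnesyltransferase and geranylgeranyl transferase I share the subunit FNTA and add these lipids to proteins that end in a CAAX motif, a cysteine followed by aliphatic residues and a last residue that guides the choice of lipid. Rab proteins are instead presented by the escort protein CHM to Rab geranylgeranyl transferase, a dimer of RABGGTA and RABGGTB. After the lipid is attached, RCE1 removes the last residues of a CAAX protein and ICMT methylates the cysteine, while ZMPSTE24 is the protease that matures farnesylated prelamin A. Statins lower the supply of both lipids, and RAS and other small GTPases depend on them to reach membranes.

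None of the 10 genes passed FDR 5% in MCF10.AT1-R, at which 1.2% of all probe sets tested were called, while 6 of them had a higher mean there and 4 a lower one. The largest difference was that of RABGGTA, 0.60 on the log2 scale or 1.52-fold, followed by CHM at 0.34 and GGPS1 at 0.25. RABGGTA, CHM, GGPS1 and ZMPSTE24 were higher on all 3 arrays of MCF10.AT1-R than on both arrays of MCF10.AT1 that were compared, and the arrays of the lines overlapped for the other 6. Among all symbols above the level of the negative controls, 16.3% were separated in this direction and 31.5% in either. Of the enzymes that supply the lipids, HMGCS1 and MVD passed FDR 5% and rose. The median log2 change was 0.13 over the members and 0.97 over the 6 supply genes looked up, a description with no test of the difference.

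RABGGTA is the member with the largest difference and GGPS1 the enzyme that makes the lipid. FNTB was the only one of the 9 members searched to hold a CCAAT box in its window, and FDPS is a supply gene with several. The promoters of these 4 genes are printed here to show what lies upstream. Each is the 250 bases before the most upstream RefSeq start (assembly GRCh38.p14), read on the gene's strand, at chr14:24271628-24271877 (minus) for RABGGTA, chr1:235326966-235327215 (plus) for GGPS1, chr14:64986645-64986894 (plus) for FNTB and chr1:155308616-155308865 (plus) for FDPS. Capitals mark CCAAT on either strand, so that ATTGG is the same box on the other strand.
RABGGTA: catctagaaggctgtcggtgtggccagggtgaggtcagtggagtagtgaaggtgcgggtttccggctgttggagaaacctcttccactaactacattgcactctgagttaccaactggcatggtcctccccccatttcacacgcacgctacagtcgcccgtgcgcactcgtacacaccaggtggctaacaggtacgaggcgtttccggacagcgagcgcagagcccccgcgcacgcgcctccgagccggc
GGPS1: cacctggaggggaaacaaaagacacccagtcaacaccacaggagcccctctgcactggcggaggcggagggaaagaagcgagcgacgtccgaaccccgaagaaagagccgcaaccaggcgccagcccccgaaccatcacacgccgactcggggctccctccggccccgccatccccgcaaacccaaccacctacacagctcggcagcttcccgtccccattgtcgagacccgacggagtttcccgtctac
FNTB: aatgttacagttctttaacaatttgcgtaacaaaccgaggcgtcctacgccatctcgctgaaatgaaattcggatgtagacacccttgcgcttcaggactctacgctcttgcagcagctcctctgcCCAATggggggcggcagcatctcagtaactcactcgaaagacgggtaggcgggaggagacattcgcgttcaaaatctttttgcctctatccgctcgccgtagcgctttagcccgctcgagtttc
FDPS: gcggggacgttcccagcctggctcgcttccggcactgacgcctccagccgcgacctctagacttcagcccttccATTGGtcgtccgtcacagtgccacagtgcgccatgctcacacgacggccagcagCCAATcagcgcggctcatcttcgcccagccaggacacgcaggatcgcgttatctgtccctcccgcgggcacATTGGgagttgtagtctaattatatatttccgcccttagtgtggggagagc

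The search covered a window of this length for 9 of the 10 members, at the most upstream start only. RefSeq gives 4 starts for CHM, 3 for GGPS1 and for the supply gene IDI1, and 2 for RABGGTA and for the supply gene HMGCS1. Whether their other starts hold a match is not given here. FNTA was left out of it, so that whether FNTA holds any of the motifs below is not known here. CCAAT is bound by NF-Y, a factor that works beside the sterol-regulated SREBP factors at many cholesterol genes. It was found in 1 of the 9 members, once in FNTB at 124 bases before the start, and in 4 of the 6 supply genes (HMGCS1, MVK, MVD and FDPS). FDPS held 3 matches, at 176, 122 and 51 bases before the start. Of all 35116 windows in the RefSeq table, 32.01% held CCAAT. A sterol regulatory element, searched as TCACNCCAC on both strands, was found in none of the 9 members or 6 supply genes and in 0.883% of all windows. Elements that depart from this exact sequence were not searched, so that a missing match does not show that a promoter lacks such an element. The GC box GGGCGG was found in 4 of the 9 members (FNTB, RCE1, ICMT and ZMPSTE24), in all 6 supply genes and in 42.6% of all windows, and in none of these promoters did it share bases with a CCAAT. The E-box CACGTG was found in none of the 9 members and in 6.34% of all windows. These matches describe letters in a window and no binding was measured.

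The values are log2 expression after RMA, so that a difference of 1 is a doubling, and levels of different genes are not compared because their probes differ. The comparison used A01 and A02 of MCF10.AT1 and B02, B03 and B04 of MCF10.AT1-R. The correlation between any pair of these 5 arrays was 0.967 to 0.977 over transcript probe sets. The array A03 of MCF10.AT1, which the study removed, correlated with them at 0.779 to 0.795, and its spiked hybridization controls averaged 5.99 against 10.35 to 11.33 on the others. On A03, 9 of the 10 members were lower than on every other array, and 7 lay within the negative controls, which here means below their 95th percentile on that array. Results that include A03 are given separately.

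**Figure D1:**
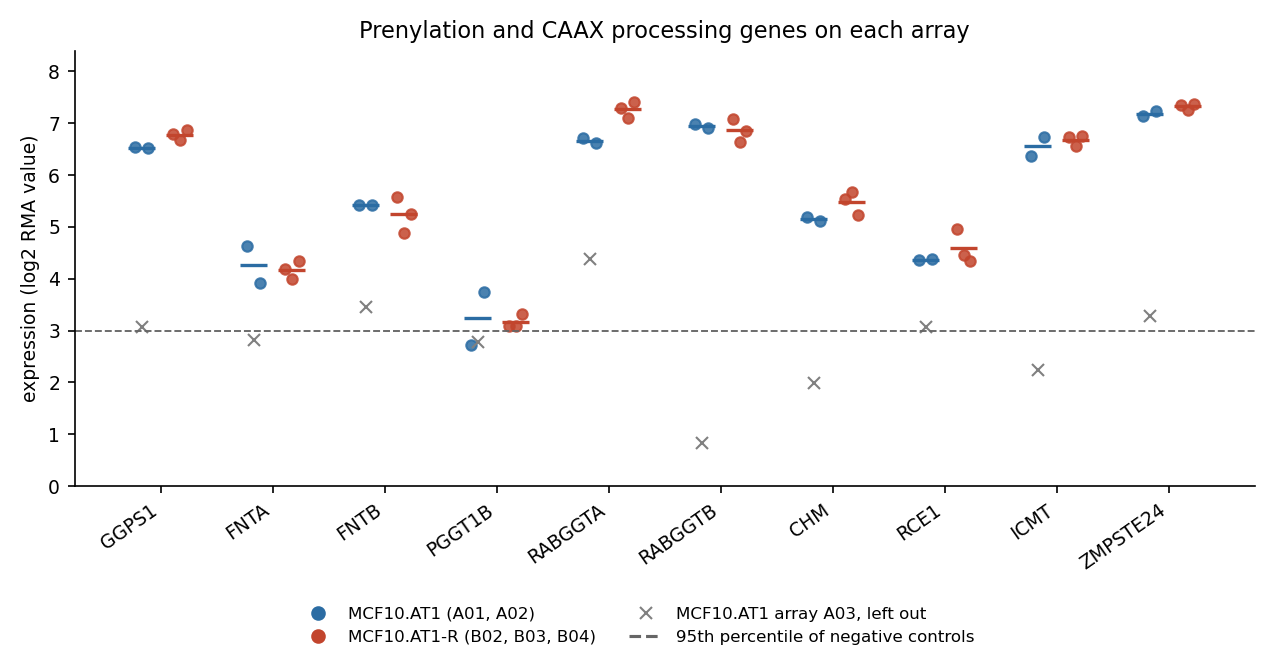
Log2 RMA expression (vertical axis) of the 10 prenylation and CAAX processing genes on each array, with blue points for MCF10.AT1 (A01 and A02), red points for MCF10.AT1-R (B02, B03 and B04), grey crosses for A03 and short bars for the means without A03. The dashed line is the mean over the 5 compared arrays of the negative controls' 95th percentile, 2.99; the red points lie wholly above the blue ones for GGPS1, RABGGTA, CHM and ZMPSTE24, and A03 is lowest for every gene but PGGT1B.

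GGPS1, the geranylgeranyl diphosphate synthase (probe set TC0100012055.hg.1), had values of 6.55 on A01, 6.51 on A02, 6.80 on B02, 6.69 on B03, 6.87 on B04 and 3.07 on A03. All MCF10.AT1-R arrays were above both MCF10.AT1 arrays, and the means were 6.53 ± 0.02 (SD, n = 2) and 6.78 ± 0.09 (SD, n = 3). The log2 change was 0.25 with a 95% interval of -0.17 to 0.67, and the adjusted p was 0.851 by limma without the filter, since the filter on the SD had removed the gene as invariant. The study kept GGPS1, from a published signature of statin resistance, among the genes that were higher in all of its model systems, these arrays included, so that the direction here is not independent evidence. FDPS, which makes the substrate of GGPS1, had values of 8.93 and 9.003 in MCF10.AT1 and 9.89, 9.84 and 9.90 in MCF10.AT1-R. The change of 0.91 on the log2 scale did not pass FDR 5% (limma adjusted p = 0.164). It passed with the trend option, which lets the variance depend on the mean level (adjusted p = 8.95e-21). With that option and no filter on the SD, the limma adjusted p was 1.19e-05, so that its size depended on the filter.

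FNTA, the alpha subunit shared by farnesyltransferase and geranylgeranyl transferase I, was at 4.63 and 3.91 on A01 and A02 and at 4.19, 3.998 and 4.34 on B02, B03 and B04. The MCF10.AT1-R values lay between those of MCF10.AT1, and the log2 difference was -0.09 with a 95% interval of -0.71 to 0.52 (limma adjusted p = 0.946). FNTB, the beta subunit of farnesyltransferase, was at 5.41 and 5.42 in MCF10.AT1 and at 5.59, 4.89 and 5.25 in MCF10.AT1-R, where B03 was the lowest array and B02 the highest. Its log2 difference was -0.17 with a 95% interval of -0.79 to 0.44 (limma adjusted p = 0.895). PGGT1B, the beta subunit of geranylgeranyl transferase I, was at 2.73 and 3.74 in MCF10.AT1 and at 3.09, 3.08 and 3.32 in MCF10.AT1-R. The A01 value lay within the negative controls, and A01 and A02 were further apart than the lines, with a log2 difference of -0.07 and a 95% interval of -0.68 to 0.54 (limma adjusted p = 0.961). The sign of all 3 differences depended on which arrays entered, since without A01 that of FNTA was 0.27, without A02 that of PGGT1B was 0.44 and without B03 that of FNTB was 0.002. Each of the 3 intervals includes a decrease of 0.60, the size of the log2 change of the Rab enzyme subunit RABGGTA described next. Each ends below an increase of that size, but all rest on an SE common to the genes tested, 0.312. The spread of the single gene did not enter, so that such an increase is not excluded.

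RABGGTA, the alpha subunit of Rab geranylgeranyl transferase (probe set TC1400008749.hg.1), was at 6.72 and 6.62 in MCF10.AT1 and at 7.29, 7.10 and 7.42 in MCF10.AT1-R. The lines did not overlap, with means of 6.67 ± 0.07 (SD, n = 2) and 7.27 ± 0.16 (SD, n = 3). The log2 change of 0.60 had a 95% interval of -0.008 to 1.21, and limma gave an unadjusted p of 0.0531 and an adjusted p of 0.618. With the trend option the adjusted p was 0.0266, and with that option and the low-expression filter alone it was 0.039, so that the call depended on how the variance was modelled. The change was 0.53 to 0.69 with any of the 5 arrays left out. RABGGTB, the beta subunit that carries the catalytic site, showed overlap between the lines, at 6.98 and 6.90 in MCF10.AT1 and 7.09, 6.64 and 6.86 in MCF10.AT1-R. Its log2 difference was -0.08 with a 95% interval of -0.55 to 0.39 (limma without the filter, adjusted p = 0.967). RABGGTB was the only member with 2 probe sets, and the other, TC0100008772.hg.1, was at 5.93 and 5.59 against 5.67, 4.84 and 5.51, a difference of -0.42. CHM, the Rab escort protein whose loss causes choroideremia, was at 5.18 and 5.11 in MCF10.AT1 and at 5.54, 5.68 and 5.24 in MCF10.AT1-R. All MCF10.AT1-R values were above those of MCF10.AT1, and the log2 difference was 0.34 with a 95% interval of -0.27 to 0.95 (limma adjusted p = 0.835).

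RCE1, the CAAX endopeptidase, was at 4.37 and 4.38 in MCF10.AT1 and at 4.95, 4.47 and 4.35 in MCF10.AT1-R. B02 alone stood well above the others, and the log2 difference was 0.22 with a 95% interval of -0.39 to 0.83 (limma adjusted p = 0.867) and 0.03 without B02. ICMT, the carboxyl methyltransferase, was at 6.38 and 6.74 against 6.73, 6.57 and 6.75, with overlap between the lines. ZMPSTE24, the prelamin A protease, was at 7.13 and 7.24 against 7.36, 7.26 and 7.37, with every MCF10.AT1-R array above both MCF10.AT1 arrays by a small margin. Limma without the filter gave log2 differences of 0.12 for ICMT (95% interval -0.34 to 0.58, adjusted p = 0.943) and 0.14 for ZMPSTE24 (95% interval -0.27 to 0.56, adjusted p = 0.923). The sign for ICMT turned without A01, when the difference was -0.06.

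**Figure D2:**
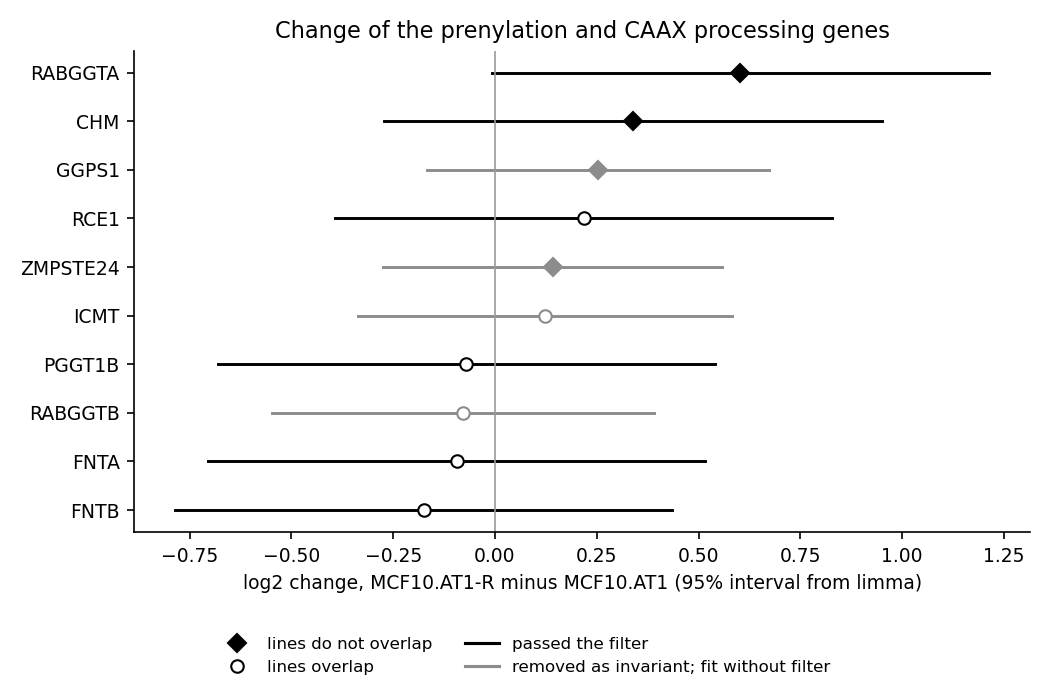
Log2 change of each prenylation and CAAX processing gene, MCF10.AT1-R minus MCF10.AT1, with its 95% interval from limma, on a horizontal log2 axis. Black diamonds or circles on black lines are genes that passed the filter, grey ones were read from limma without it, and filled diamonds mark genes whose arrays do not overlap between the lines; every interval includes 0, and that of RABGGTA begins at -0.008.

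Of the 10 members, 6 passed the filter on low and invariant probe sets (RABGGTA, CHM, RCE1, PGGT1B, FNTA and FNTB), and 4 were removed as invariant (GGPS1, RABGGTB, ICMT and ZMPSTE24). None of the 10 passed FDR 5%, at which limma called 1.2% of all 51457 probe sets tested (0.758% higher and 0.447% lower in MCF10.AT1-R), and none of the 6 tested had an unadjusted p under 0.05, against 8.26% of the probe sets tested. In limma without the filter RABGGTA had an unadjusted p of 0.0134 and the other 9 members had one above 0.05, against 6.7% of all probe sets below it. With the trend option 1 member was called, RABGGTA, against 2.68% of the probe sets tested (1.69% higher and 0.981% lower), and with that option and the low-expression filter alone again RABGGTA, against 1.6%. The 4 members without overlap between the lines were all higher in MCF10.AT1-R, and among 28333 symbols above the negative-control level 16.3% were separated in that direction, 15.3% in the other and 31.5% in either. The median log2 change of the members, 0.13, stood beside a median of -0.009 for these symbols, and it was 0.23 without A02 and 0.07 without B02. The count of members without overlap was 7 without A02, where 51.6% of the probe sets tested did not overlap, against 26.7% with all 5 arrays. In an exact two-sided permutation test over the 5 arrays, no gene can reach a p below 0.2, since there are 2 arrays against 3.

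Pairs of genes that work together were compared as differences within each array, 5 pairs in all, which sets aside any shift common to both genes. RABGGTA minus RABGGTB was -0.27 and -0.29 in MCF10.AT1 and 0.20, 0.46 and 0.56 in MCF10.AT1-R. The lines did not overlap, and the shift of 0.68 had an exact permutation p of 0.2, the smallest that the design allows, and 0.5 after adjustment over the 5 pairs. FDPS minus GGPS1 was 2.38 and 2.49 in MCF10.AT1 and 3.09, 3.16 and 3.03 in MCF10.AT1-R, a shift of 0.66 with the same exact p. CHM minus its paralog CHML, another Rab escort protein, overlapped between the lines with a shift of 0.38 (exact permutation p = 0.6). For the subunits FNTB minus FNTA the shift was -0.08 and for PGGT1B minus FNTA it was 0.02, with A01 and A02 at opposite ends of the range in the latter pair.

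**Figure D3:**
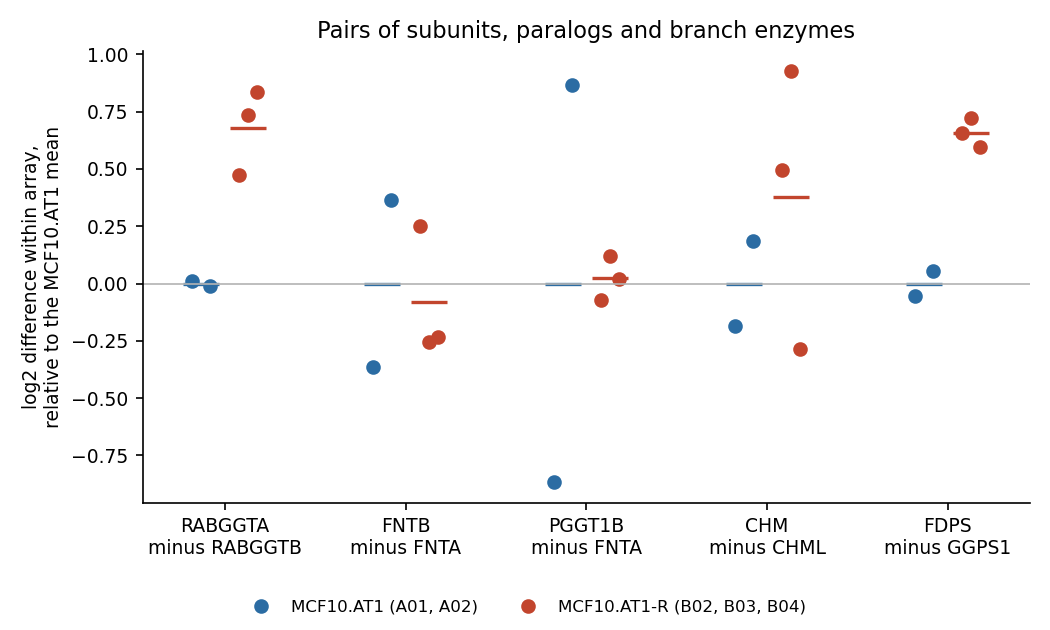
Difference in log2 expression between the genes of 5 pairs on each array, given relative to the MCF10.AT1 mean of the pair (vertical axis, log2), with blue points for MCF10.AT1, red points for MCF10.AT1-R and bars for the means. The red points are wholly above the blue ones for RABGGTA minus RABGGTB and for FDPS minus GGPS1, and overlap them for the other 3 pairs.

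The genes of 7 lists around prenylation, 73 in all, were looked up, and 4 of them passed FDR 5%. Limma called 1.2% of all probe sets tested at that level. The filter had kept all 6 supply genes, 3 of 7 other isoprenoid users, 8 of 13 carriers and 5 of 7 palmitoylation genes. It had kept 10 of 19 farnesylated and 5 of 15 geranylgeranylated substrates, and 5 of 6 genes known to rise when prenylation is blocked. Those it removed were read from limma without the filter, where none of them passed. Of the 6 genes of isoprenoid supply, 2 rose past FDR 5%, against 0.758% of all probe sets tested, and none fell. HMGCS1, the HMG-CoA synthase, was at 5.71 and 5.87 in MCF10.AT1 and at 7.35, 7.31 and 7.42 in MCF10.AT1-R, a 2.97-fold rise (log2 change 1.57, limma adjusted p = 0.000121). MVD, the mevalonate diphosphate decarboxylase, was at 7.10 and 6.98 against 8.68, 8.73 and 8.79, a 3.23-fold rise (log2 change 1.69, limma adjusted p = 1.82e-05). In limma without the filter the adjusted p was 0.0229 for HMGCS1 and 0.0151 for MVD. Both still passed, but the size of these p-values depended on the filter. IDI1, the isopentenyl diphosphate isomerase, had a log2 change of 1.02 (limma adjusted p = 0.0714), and PMVK had the smallest change of the list, 0.17. With the trend option 4 of the 6 were called, all higher, against 1.69% of the probe sets tested. On every MCF10.AT1-R array 5 of the 6 were higher, against 16.3% of symbols above the negative-control level. HMGCS1, IDI1 and PMVK were kept by the study in the same way as GGPS1, so that their direction is not independent evidence.

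None of the 7 other enzymes that draw on isoprenoid diphosphates passed FDR 5%, and their median log2 change was 0.08. The highest and lowest changes were 0.49 for DHDDS, a subunit of the enzyme that makes dolichol chains, and -0.47 for PDSS2, a subunit of the enzyme that makes the ubiquinone side chain, and the lines overlapped for both. PDSS2 lay within the negative controls on B02 and B03, and with values raised to the level of these controls its difference was -0.16. COQ2, an enzyme of ubiquinone synthesis named after its values were seen, was above the controls on all 5 arrays and lower on every MCF10.AT1-R array, with a log2 difference of -0.40 (limma adjusted p = 0.813). None of the 13 carriers and partners of prenylated proteins passed, with a median of -0.04. They ranged from -0.34 for PCYOX1L to 0.39 for PCYOX1, the lysosomal oxidase that breaks down prenylcysteine. CHML had a log2 difference of -0.04, and PTAR1, which resembles the alpha subunits of prenyltransferases, was at 6.90 and 6.95 against 6.83, 6.80 and 6.76, a difference of -0.13 (limma without the filter, adjusted p = 0.932). Among 7 genes of palmitoylation, the further lipid that some prenylated proteins gain, none passed and the median was 0.25, from -0.26 for ABHD17A to 0.78 for ABHD17C, both depalmitoylases (limma adjusted p = 0.848 and 0.341).

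The substrates were looked up as genes for farnesylated proteins outside RAS (19) and for geranylgeranylated CAAX proteins (15). Of the farnesylated list 2 genes fell past FDR 5%, against 0.447% of all probe sets tested, and none rose past it. The median log2 change was -0.10. On every MCF10.AT1-R array 7 of the 19 were lower and 2 were higher. The shares among symbols above the negative-control level were 15.3% and 16.3%, while 3 of the 19 lay within the negative controls on all 5 arrays. GNG11, a farnesylated G protein gamma subunit, was at 4.92 and 4.62 in MCF10.AT1 and at 2.60, 2.55 and 2.05 in MCF10.AT1-R, a log2 change of -2.37 (limma adjusted p = 2.48e-11). In limma without the filter the adjusted p of GNG11 was 0.01, so that its size depended on the filter. The MCF10.AT1-R values lay within the negative controls, and against their 95th percentile on each array GNG11 was at least 3.58-fold lower. CENPF, a kinetochore protein made in dividing cells, was at 6.82 and 6.67 against 5.63, 5.42 and 5.73, a log2 change of -1.15 (limma adjusted p = 0.0233). The call for CENPF was lost when an array was left out, with an adjusted p of 0.418 without A01, 0.245 without A02, 0.0585 without B02 and 0.0787 without B03, while its change stayed between -1.23 and -1.07. RND3 had the highest log2 change of the list, 0.59 (limma adjusted p = 0.637). LMNA, whose prelamin A product is the substrate of ZMPSTE24, was at 8.96 and 8.95 against 8.69, 8.42 and 8.81, a difference of -0.31 (limma adjusted p = 0.838). None of the geranylgeranylated list passed, with a median of 0.01. The list ranged from -0.23 for GNG2 to 0.58 for RALA, a RAS-like GTPase that was at 6.67 and 6.52 against 7.26, 7.10 and 7.19 (limma adjusted p = 0.645, and 0.0437 with the trend option).

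**Figure D4:**
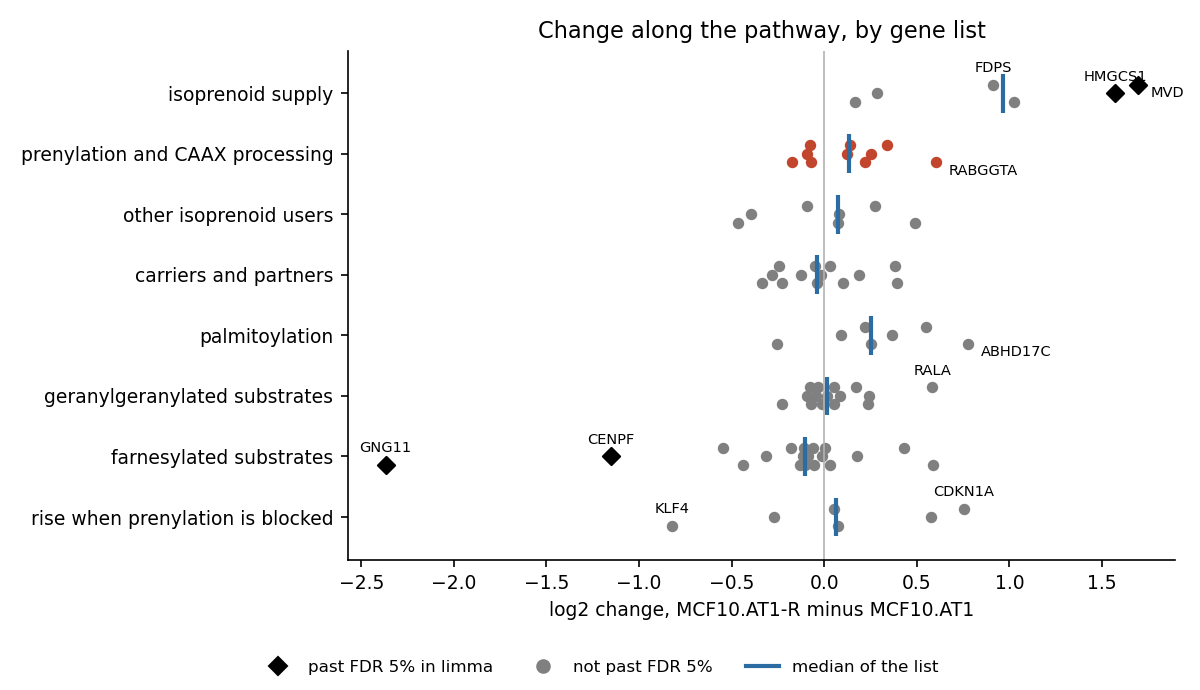
Log2 change, MCF10.AT1-R minus MCF10.AT1 (horizontal axis), of every gene of 7 lists around prenylation and of the 10 members, in red, by list (vertical axis); black diamonds passed FDR 5% in limma and blue bars are medians. The isoprenoid supply genes lie to the right of 0 with a median of 0.97, the members have a median of 0.13, and the only genes past FDR 5% are HMGCS1, MVD, GNG11 and CENPF.

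Of 6 genes known to rise when prenylation is blocked, none passed FDR 5%, and the median log2 change was 0.06. CDKN1A, the cell cycle inhibitor p21, was at 6.41 and 6.45 in MCF10.AT1 and at 7.09, 7.14 and 7.32 in MCF10.AT1-R, a log2 change of 0.75 (limma adjusted p = 0.377, and 0.00239 with the trend option). The transcription factor KLF6 had a log2 change of 0.58 (adjusted p = 0.652, and 3.97e-06 with the trend option). With that option and the low-expression filter alone, the limma adjusted p was 0.00821 for CDKN1A and 0.00276 for KLF6. KLF4, another factor of that family, was lower on every MCF10.AT1-R array, at 4.26 and 4.72 against 3.58, 3.46 and 3.97, a difference of -0.82 (limma adjusted p = 0.281). RHOB, a small GTPase gene that prenylation inhibitors induce, had a difference of -0.27, with overlap between the lines.

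The symbols whose values over the 5 arrays were most like those of RABGGTA, each gene centred on its own mean, were FAM25A, a transcript named after a genomic clone (probe set TC0600012383.hg.1) and TUBB2B, which departed from it by at most 0.033, 0.035 and 0.038 on any array. For GGPS1 they were CYP4B1, KRT18P40 and ZNF664, with largest departures of 0.051, 0.052 and 0.055. About the same number of symbols, 35765 for RABGGTA, was searched for each, and with 5 arrays such likeness is only a description.

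Markers of cell type were read on the same arrays. All 8 genes listed as markers of basal breast epithelium were above the negative controls on the 5 arrays. Of them 6 rose past FDR 5%, against 0.758% of all probe sets tested, KRT17 by 4.08 and KRT14 by 2.37 on the log2 scale. CDH1, an epithelial gene not particular to basal cells, was among these 6. Of 6 luminal markers, KRT8 rose by 1.11, while PGR lay within the negative controls on all 5 arrays and ESR1 on 3. Of the 6 fibroblast markers DCN fell by 2.15, and of the 6 blood and endothelial markers CD14 and PECAM1 fell by 1.12 each, while PTPRC, the leukocyte marker, lay within the negative controls on all 5 arrays. The mean log2 level of each list on an array was 6.57 to 6.67 in MCF10.AT1 and 8.31 to 8.38 in MCF10.AT1-R for the basal markers, 5.13 to 5.18 and 5.31 to 5.51 for the luminal, 4.50 to 4.61 and 4.14 to 4.27 for the fibroblast, and 3.57 to 3.93 and 3.42 to 3.63 for the blood and endothelial markers. The part of these markers in the differences above was not tested. The RNA came from cultured epithelial lines, and the falls of DCN, CD14 and PECAM1 are changes of RNA level, not counts of cells. Within a line, a smaller share of cells that make an RNA and less of it per cell cannot be told apart.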

How the data were processed

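The authors deposited log2 expression values per probe set and array, made from the raw Clariom D scans by RMA with the Bioconductor packages affy and oligo, for 3 arrays of each line. The genome build behind the probe sets is not given in the sources used here. Arrays were assigned to lines from their names and the study's principal component plot. Following the study, A03 was left out and low and invariant probe sets were removed. The limits were chosen here, a mean over 5 arrays above 1.88 and an SD above the lowest 25% (0.176), and left 51457 of 135750 probe sets. These were fitted with lmFit and eBayes in limma 3.58.1 (R 4.3.3), Benjamini-Hochberg adjusted, and called at FDR 5%. After the filter limma gave a common SE of 0.312 to all, which favours variable genes over steady ones. The fit was also run on simulated data with known changes. These were all larger than those of the members, so that the run does not show whether changes of the members' size would be found. Members removed by the filter were read from a fit without it. The number of arrays limits the precision.

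The members and lists were chosen with earlier results of these data known. A gene of the supply list is not reported here and was left out of its counts. Genes named are the members and, of each list, those past FDR 5%, the highest and lowest change and partners of members, with those called under the trend option, COQ2 and RHOB added after their values were seen. Promoters and gene order came from RefSeq tables (GRCh38.p14). Exact permutation tests used scipy 1.17.1. Alternatives changed the arrays, filter, variance model, normalization, probe set choice, floor and threshold.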

Additional observations from a re-analysis of the deposited data

How the results depend on the processing

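No paired analysis was possible because the columns of the table carry no labelled replicate number, so the replicate block was not run. The planned count of proteins ending in a prenylation signature was not run, since no protein table was used here. No member passed FDR 5% under any setting except the trend option (1) and that option with the low-expression filter alone (1), both times RABGGTA. The genes of the lists past FDR 5%, 4 as reported, numbered 9 under each of these settings, 0 with all 6 arrays and 6 with array weights over the 6, where KLF4 (adjusted p = 0.0324) and ABHD17C (0.0358) were among those called. With all 6 arrays the members' median log2 change was 1.38 and with array weights 0.31, against 0.13 as reported. With an array left out in turn, the median ran from 0.0664 to 0.23, the members without overlap from 4 to 7 (39.4% to 53.7% of the probe sets tested, against 26.7% with the 5 arrays) and the list genes called from 3 to 4.

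Including A03 turned the sign of FNTA (0.39), FNTB (0.48), PGGT1B (0.082), RABGGTB (1.96), CHML (0.84), PTAR1 (1.31), LMNA (1.11), CENPF (0.32), GNG2 (0.011), ABHD17A (0.10), COQ2 (0.67), RHOB (0.25) and PCYOX1L (0.0708), all then higher in MCF10.AT1-R. Array weights turned FNTA (0.0863), RABGGTB (0.29), CHML (0.19) and PTAR1 (0.10). All of these genes but PGGT1B were lower on A03 than on every other array, and in both settings A03 enters the MCF10.AT1 mean. Why A03 gave such low values was not tested. Leaving out an array turned 7 genes, whose changes ran from -0.46 to 0.27 (FNTA), -0.35 to 0.00242 (FNTB), -0.58 to 0.44 (PGGT1B), -0.19 to 0.0339 (RABGGTB), -0.0599 to 0.31 (ICMT), -0.26 to 0.18 (CHML) and -0.48 to 0.0222 (GNG2). The call for CENPF was also lost with the low-expression filter alone (adjusted p = 0.0943), without a filter (0.126) and with a floor at the negative controls (0.0524). Repeating the quantile normalization or centring the arrays turned no sign among the named genes. The smallest log2 change called at FDR 5% was 1.07, so that differences below it, those of all 10 members included, are not resolved by this fit.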

Other observations

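The nearest protein-coding RefSeq gene on each side of the members was looked up, chosen after the members' values were seen, and 19 of the 20 had a symbol in the table. None of those that the filter had kept passed FDR 5% in limma, at which 1.2% of all probe sets tested were called. The others, such as TBCE beside GGPS1 and MAX beside FNTB, were not tested. NOP9, which overlaps RABGGTA, was at 3.04 and 3.59 in MCF10.AT1 and at 4.22, 4.08 and 3.64 in MCF10.AT1-R, a log2 difference of 0.67 (limma adjusted p = 0.516) without overlap between the lines, and it lay within the negative controls on A01. TGM1, which lies 2360 bases on the other side of RABGGTA, was at 2.55 and 2.97 against 2.91, 2.67 and 2.43, within the negative controls on 4 of the 5 arrays. On A03, where RABGGTA was lower than on every other array, NOP9 was at 3.89. ARID4B, which overlaps GGPS1, had a log2 difference of 0.13. CHURC1-FNTB, whose symbol includes FNTB and which overlaps it, had one of -0.18 and is not a separate neighbour of FNTB.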
